A study of Mus musculus with 30 samples.

Results

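The fibroblast populations of MMTV-PyMT mammary tumours were compared with the macrophage populations of the same tumours. Bulk RNA sequencing had been done on 6 sorted populations from each of 5 tumours (30 libraries), and the comparison used the 25 libraries of 5 populations: 10 of cancer-associated fibroblasts (CAFs) and 15 of tumour-associated macrophages (TAMs). Endothelial libraries were left out. All libraries, of both lineages, came from FVB/N-Tg(MMTVPyVT)634Mul/J mice with no treatment named in the labels. In this strain the mouse mammary tumour virus promoter drives polyoma middle T antigen in the mammary epithelium. Each tumour came from its own mouse and measured 750 mm3. The tumours carry the numbers 5, 6, 8, 10 and 11.

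Cells were sorted on surface proteins after digestion with collagenase and DNase. CAF1 cells were CD45-, CD31-, CD90+ and CD34-, and CAF2 cells were the same but CD34+. The macrophages were CD45+ and F4/80+ and were parted into CD206hi MHCIIlo, CD206neg MHCIIlo and CD206pos MHCIIhi cells, called CD206hi, CD206neg and CD206pos below. Each population had n = 5 libraries, 1 per tumour. The contrast took the mean of the 2 CAF populations minus the mean of the 3 TAM populations on the log2 scale, each population weighing the same, with the tumour as a block.

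Fibroblasts build the extracellular matrix: they secrete collagens, proteoglycans and microfibril proteins together with the enzymes that trim and crosslink them. Macrophages take up particles and dying cells, degrade them in acidic lysosomes, present antigen and signal by cytokines. In mammary tumours both are abundant stromal cells, and the growth factors and chemokines that one makes have receptors on the other.

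Library totals were 8172446 to 11957076 counts in CAFs and 6292411 to 9892472 in TAMs, and 11514 to 13756 genes had a count per library. Levels are given in CPM, counts relative to the TMM-scaled library total, which compare libraries but not genes. With 0 counts a level of up to 3 counts remains possible (95% limit, counting error only), and 3 counts equalled 0.191 to 0.681 CPM. Spearman correlations over the tested genes were 0.841 to 0.981 among CAF libraries, 0.900 to 0.984 among TAM libraries and 0.555 to 0.633 between the lineages, as a description, and the nearest library of all 25 belonged to the same lineage. For 2 libraries, CD206neg from tumours 6 and 8, the column names say MHCII high where the labels say low. The labels were used. Leaving both out gave 9419 called genes in place of 9439.

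The genes of the sort markers and the 4 lineage markers are a check of the labels, so no test result is given for them here. Pdgfra, the PDGF receptor alpha of fibroblasts, lay at 77.1 to 308 CPM (median 161) in CAFs and at 0 to 0.730 CPM in TAMs. Dcn, the proteoglycan decorin, lay at 1506 to 16187 CPM (median 9780.3) in CAFs and 0.533 to 7.49 CPM in TAMs. Adgre1, which encodes F4/80, lay at 317 to 1010.5 CPM (median 636) in TAMs and 0 to 0.568 CPM in CAFs, and Ptprc, which encodes CD45, at 229 to 444 CPM (median 345) in TAMs and 0 to 1.25 CPM in CAFs. In these 4 genes no library of one lineage reached the other. Thy1, which encodes CD90, lay at 19.6 to 59.1 CPM in CAFs and never above 2 counts in a TAM library. Cd34 averaged 54 ± 38.3 CPM (SD, n = 5) in CAF1 and 1349.9 ± 233 CPM (SD, n = 5) in CAF2, so it was present at a low level in the CD34- gate. In TAMs it averaged 22 CPM in CD206neg, 0.709 in CD206hi and 1.11 in CD206pos cells. Mrc1, which encodes CD206, averaged 1079 CPM in CD206hi, 1236 in CD206pos and 78.2 in CD206neg cells, with at most 0.696 CPM in CAFs. Its mean was thus lowest in CD206neg cells but not higher in CD206hi than in CD206pos cells. H2-Aa, an MHC class II chain, went against a label. In the cells labelled CD206neg MHCIIlo it lay at 13493 CPM in tumour 6 and 2664 in tumour 8, the libraries whose column names say MHCII high, and at 16.7, 454 and 512 CPM in tumours 5, 10 and 11. CD206hi MHCIIlo cells had 11 to 144 CPM and CD206pos MHCIIhi cells 482 to 8544 CPM. The CD206neg libraries of tumours 6 and 8 thus lay above every CD206hi library and within or above the MHCIIhi range. Those of tumours 10 and 11 also lay above every CD206hi library, and that of tumour 11 was inside the MHCIIhi range. Pecam1, which encodes CD31, stayed at or below 4.80 CPM in all 25 libraries.

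**Figure D1:**
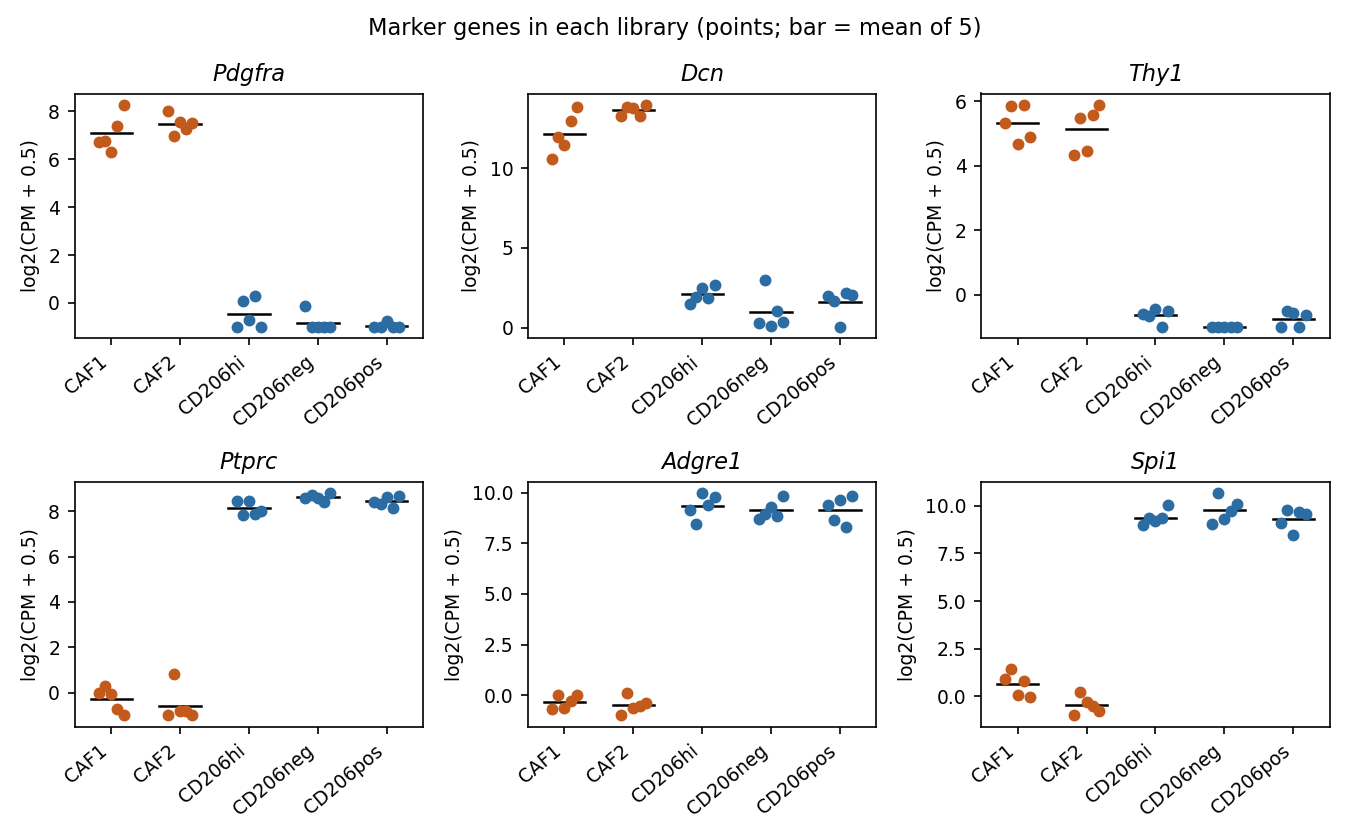
Level of 6 marker genes on a log2 CPM axis in each library (points), by population, with the mean of 5 libraries as a bar. Pdgfra, Dcn and Thy1 are high in all 10 CAF libraries (orange) and Ptprc, Adgre1 and Spi1 in all 15 TAM libraries (blue), with no overlap.

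Most genes differed between the lineages. Of 13089 genes tested, 9439 (72.1%) were called by edgeR's quasi-likelihood test at a Benjamini-Hochberg adjusted p under 0.05, 5110 (39%) higher in CAFs and 4329 (33.1%) higher in TAMs. With this background a single call says little, so a second rule asked also for a difference of at least 4-fold: 3628 genes (27.7%) passed, 2313 (17.7%) higher in CAFs and 1315 (10%) higher in TAMs. The difference had the same sign in 5 of 5 tumours for 4749 of the calls higher in CAFs and 3903 of those higher in TAMs. Every CAF library lay above every TAM library in 1961 genes (15%), and every TAM library above every CAF library in 1351 (10.3%). These shares are the background for the counts of list members below. All p-values named below come from this test and adjustment over 13089 genes.

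The log2 fold change, CAF over TAM with its standard error, had a median of 0.09 over all tested genes and quartiles of -0.63 and 1.11. The split of calls depended on scaling: 54.1% of calls were higher in CAFs with TMM scaling, and 69% with scaling by library totals alone (6430 higher in CAFs and 2885 higher in TAMs), under which the median moved to 0.42. Differences below are relative to TMM. In 586 of the genes called higher in CAFs no TAM library held more than 3 counts, and in 209 of those called higher in TAMs no CAF library did. For such genes the fitted fold depends on the fit's prior count, so they are given in CPM, and the medians of lists are also given with them set to a lower bound. They passed the filter on low counts through the lineage in which they are high, so their calls give no support of their own. The 15 TAM and 10 CAF libraries come from 5 mice, so the spread behind the test is that of sorted populations within these tumours. In bulk RNA of sorted cells, fewer cells of a type and less RNA per cell cannot be told apart.

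**Figure D2:**
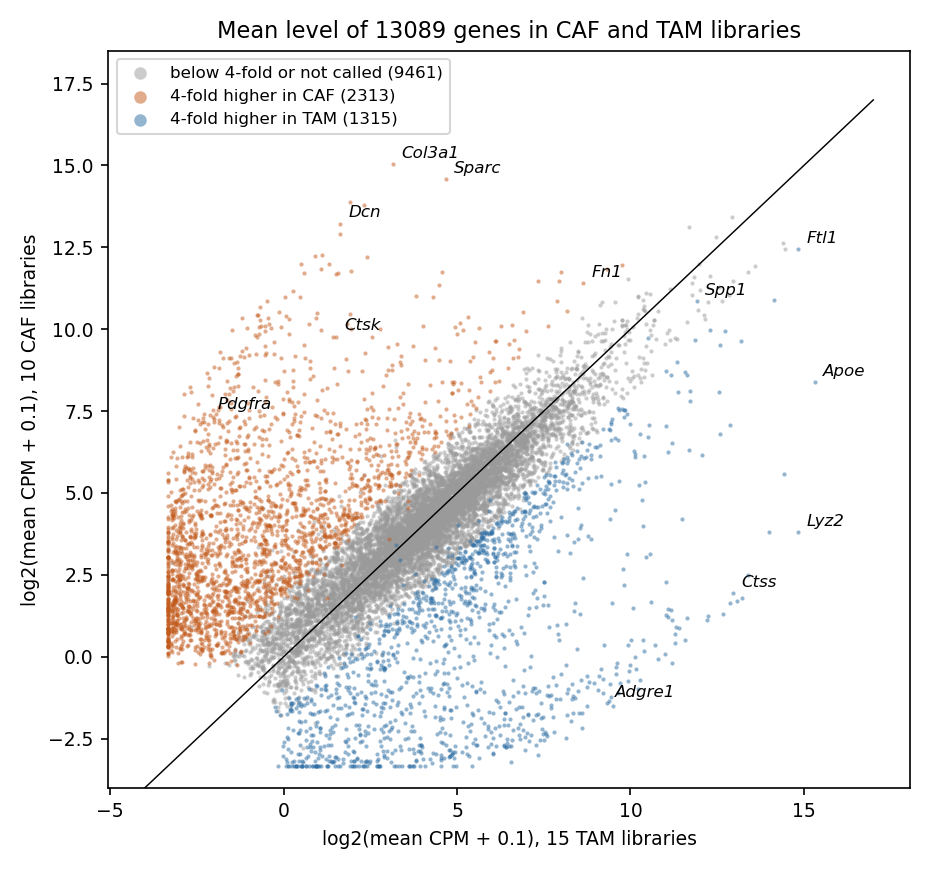
Mean level of 13089 genes in the 10 CAF libraries (vertical) against the 15 TAM libraries (horizontal), both on a log2 axis, with the line of equal levels. Orange points are the 2313 genes called at 4-fold higher in CAFs and blue points the 1315 called at 4-fold higher in TAMs. Most named genes lie far from the line on their own side, while the libraries of Spp1 overlap widely between the lineages.

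**Figure D3:**
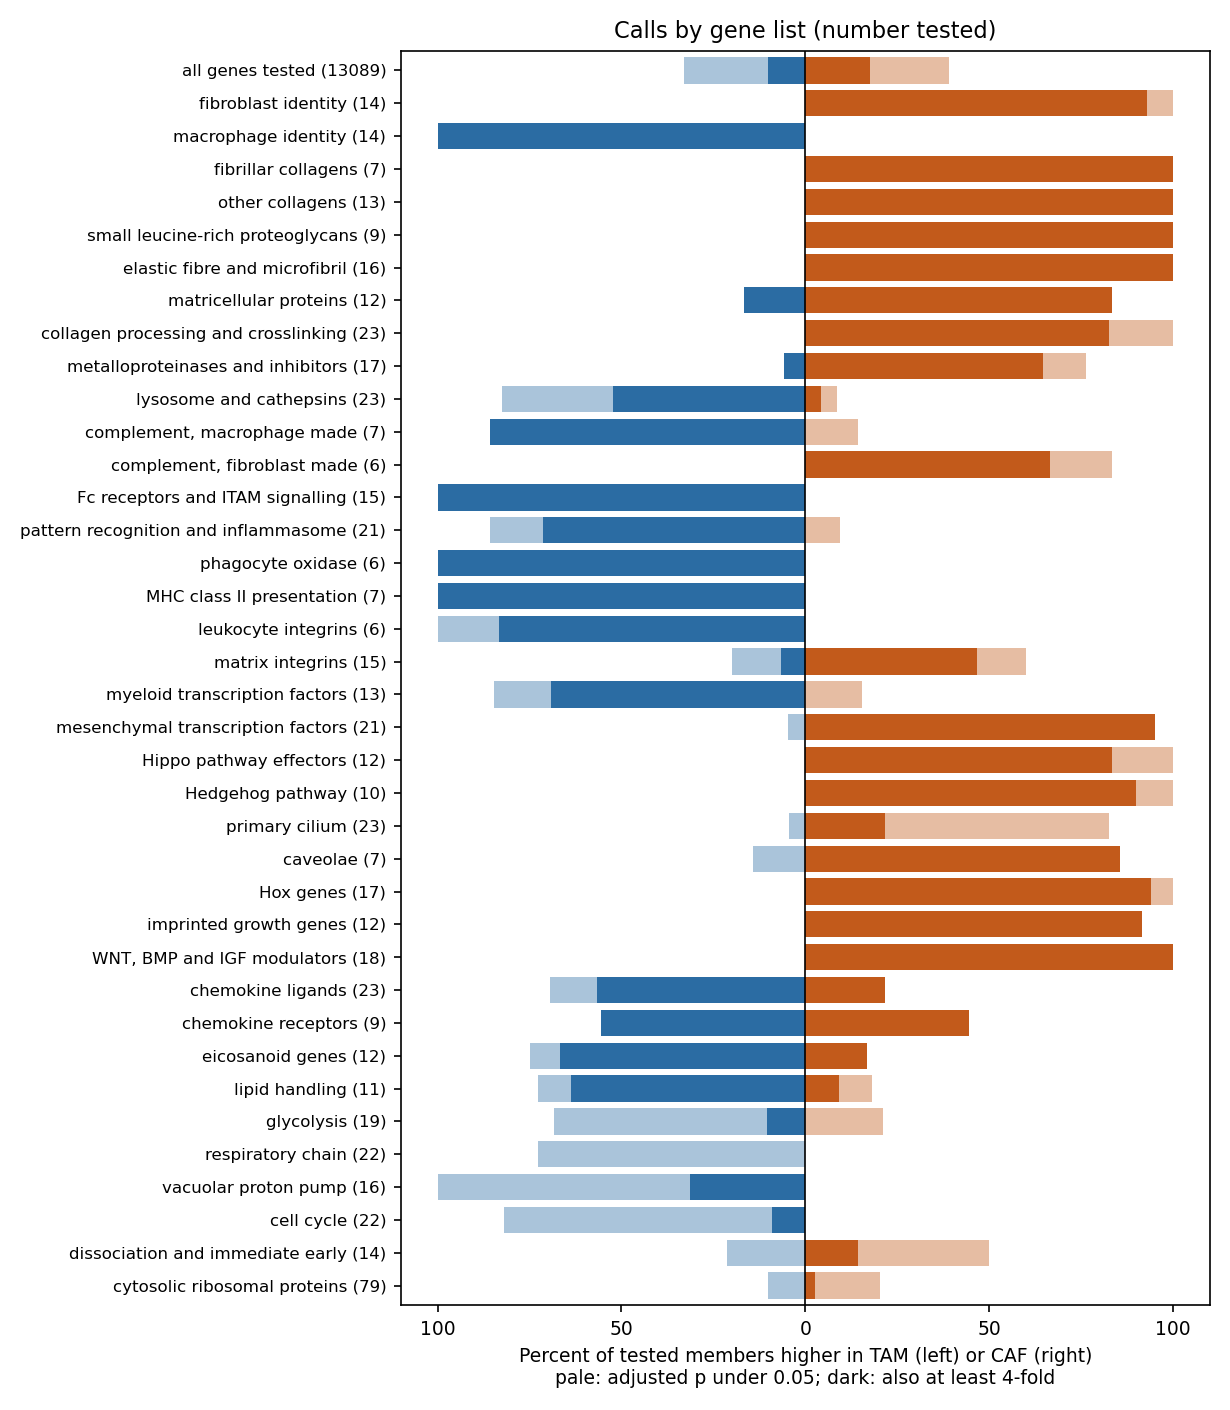
Percent of the tested members of each gene list higher in CAFs (right, orange) or TAMs (left, blue), with the number tested in parentheses. The marker lists of other cell types are not shown. Pale bars are all calls and dark bars those of at least 4-fold, and the row of all genes tested (39% and 33.1% called) is the background for each list.

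Of the 10 genes with the highest mean CAF level among those called at 4-fold with no overlap of libraries, most encode matrix proteins (Col3a1, Sparc, Col1a1, Col1a2, Dcn, Postn, Mfap5 and Lum), and the others are Serping1 and Igfbp7. Col3a1, which encodes the type III collagen chain (chromosome 1, 45311538 to 45349706, Entrez 12825, GRCm38.p6), lay at 9039 to 82289 CPM (median 27510.0) in CAFs and 2.58 to 22.5 CPM (median 9.29) in TAMs. No TAM library came near the lowest CAF library, and the log2 fold change was 11.89 ± 0.42 (adjusted p = 4.81e-17). The type I chains Col1a1 (chromosome 11, 94936224 to 94953042, Entrez 12842) and Col1a2 had CAF levels of 2767 to 71598 CPM (median 7658) and 6240.2 to 44133 CPM (median 10943), with TAM maxima of 10.4 and 12 CPM. Their log2 fold changes were 11.44 ± 0.48 and 11.48 ± 0.41. Within the CAFs, Col1a1 averaged 25158 CPM in CAF1 and 4978 in CAF2, both far above the TAM populations at 3.33 to 4.02 CPM. All 7 fibrillar collagen genes tested were called at 4-fold higher in CAFs, with a median log2 fold change of 11.04, and Col5a1, which regulates fibril diameter, was among them (11.04 ± 0.30). The summed level of this list was 24365 to 203201 CPM in CAFs and 5.16 to 51.3 CPM in TAMs.

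All 13 other collagen genes tested were also called at 4-fold higher in CAFs (median 7.86). Col6a2, a chain of the beaded filaments of type VI collagen, lay at 738 to 5376 CPM (median 1311) in CAFs and at most 1.67 CPM in TAMs (log2 fold change 11.27 ± 0.36). Col8a1, a network-forming collagen, and Col12a1, which binds fibrils, had log2 fold changes of 10.54 ± 0.38 and 9.80 ± 0.32, and no TAM library exceeded 2.92 CPM of either.

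The small leucine-rich proteoglycans, which bind collagen and control fibril growth, were called higher in CAFs at 4-fold in 9 of 9 members, with a median of 11.04, or 9.96 with 3 members at their bound. Those 3 passed the filter on low counts through CAFs, so their calls give no support of their own. Dcn, a lineage marker used to check the labels, is also in this list. Lum, which encodes lumican, lay at 1100.1 to 10346 CPM (median 3216) in CAFs and 0 to 5.30 CPM in TAMs, a log2 fold change of 11.64 ± 0.51 (adjusted p = 1.79e-15). Prelp lay at 34.2 to 757 CPM (median 473) in CAFs with at most 3 counts in any TAM library, and averaged 246 CPM in CAF1 and 646 in CAF2.

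Elastic fibre and microfibril genes, whose products form the extensible part of the matrix, were all called at 4-fold higher in CAFs (16 of 16, median 10.20). In each of the 16 genes every CAF library lay above every TAM library, against 15% of all genes tested. Mfap5, a microfibril-associated glycoprotein, lay at 1013 to 9040.0 CPM (median 4838) in CAFs and 0.417 to 4.33 CPM in TAMs, a log2 fold change of 11.48 ± 0.34. Mfap2 and the fibulin gene Fbln1 had log2 fold changes of 11.08 ± 0.25 and 11.37 ± 0.35, with TAM maxima of 0.582 and 0.908 CPM.

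Matricellular proteins, which modulate contacts between cells and matrix, did not all go one way: 10 of 12 were called at 4-fold higher in CAFs and 2 at 4-fold higher in TAMs (median 8.85, or 8.76 with 1 member at its bound). Sparc, which encodes osteonectin, lay at 10505 to 51741 CPM (median 20792) in CAFs and 11 to 46.3 CPM in TAMs (log2 fold change 9.89 ± 0.28). Postn, which encodes periostin, lay at 3344 to 31846 CPM in CAFs and 0.402 to 7.23 CPM in TAMs (log2 fold change 11.11 ± 0.43), and Tnc, which encodes tenascin C, averaged 469 CPM in CAF1 and 133 in CAF2 (10.19 ± 0.36).

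The 2 members higher in TAMs were Tgfbi and Spp1. Tgfbi, whose product binds collagen and integrins, lay at 236 to 799 CPM (median 442) in TAMs and 5.23 to 23.1 CPM (median 10.4) in CAFs, without overlap (log2 fold change -5.26 ± 0.23). Spp1, which encodes osteopontin, lay at 259.99 to 12121 CPM (median 2675) in TAMs and 8.64 to 6858 CPM (median 702) in CAFs, with wide overlap (log2 fold change -2.46 ± 0.45, adjusted p = 3.66e-05). Its CAF mean was 3581 CPM in CAF1 and 118 in CAF2, and the log2 fold change of CAF1 alone against TAMs was 0.34, so the call higher in TAMs rests on CAF2.

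The genes that process and crosslink collagen followed the collagens. All 23 were called higher in CAFs, 19 of them at 4-fold, with a median log2 fold change of 4.81, lower than that of the fibrillar collagens. Lox and Loxl1, which oxidise lysines for crosslinks, lay at 260.4 to 995 CPM (median 603) and 120.5 to 775 CPM (median 310.1) in CAFs and at most 1.57 and 0.681 CPM in TAMs. Their log2 fold changes were 10.39 ± 0.37 and 10.59 ± 0.33. The prolyl hydroxylase subunit gene P4ha3 (log2 fold change 9.83 ± 0.38) and the collagen chaperone gene Fkbp10 (9.71 ± 0.24) showed the same separation of libraries.

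Of the genes with no more than 3 counts in any TAM library, those with the highest CAF means include other secreted or surface proteins. Abi3bp, a matrix protein, lay at 37.2 to 554 CPM (median 291) in CAFs, Tnxb, which encodes tenascin X, at 5.34 to 721 CPM (median 267), and the guidance factor gene Sema3c at 7.20 to 617 CPM (median 229). The last pair had most of their CAF level in CAF2, with means of 549.7 against 47.6 CPM for Tnxb and 529 against 15.9 CPM for Sema3c. Scara3 (43.9 to 535 CPM), Pcolce2 (4.77 to 647 CPM), Svep1 (71.3 to 302 CPM) and the adhesion receptor gene Adgrd1 (40.6 to 326 CPM) completed this set with Prelp, Mmp23 and Dkk3.

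Matrix-degrading metalloproteinases and their inhibitors were mostly a CAF group: 13 of 17 were called higher in CAFs, 11 of them at 4-fold, 1 was higher in TAMs and 3 were not called (median 7.30, or 5.64 with 2 members at their bound). Mmp3, stromelysin 1, lay at 124 to 4524 CPM (median 650.2) in CAFs and at most 2.97 CPM in TAMs (log2 fold change 11.25 ± 0.55). Adamts2, which removes the amino propeptide of procollagens, and the aggrecanase gene Adamts5 had log2 fold changes of 10.70 ± 0.27 and 10.26 ± 0.32, and Mmp23 lay at 71.7 to 281 CPM in CAFs with at most 3 counts in a TAM library. The exception was Mmp12, macrophage elastase. It lay at 15.9 to 3357 CPM (median 235) in TAMs and 0.0740 to 5.44 CPM (median 0.499) in CAFs, without overlap (log2 fold change -8.92 ± 0.58, adjusted p = 3.24e-12), and its TAM means were 1354 CPM in CD206neg, 259.8 in CD206hi and 193 in CD206pos cells.

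Secreted antagonists and carriers of the WNT, BMP and IGF pathways, which bind these ligands or their receptors outside the cell, were called at 4-fold higher in CAFs in 18 of 18 members (median 8.58, or 7.37 with 5 members at their bound). Those 5 passed the filter on low counts through CAFs, so their calls give no support of their own. Fstl1, a follistatin-like glycoprotein, lay at 1115 to 5530.3 CPM (median 3854) in CAFs and 0.622 to 3.09 CPM in TAMs, with a log2 fold change of 11.15 ± 0.26 (adjusted p = 8.15e-20). The IGF carrier gene Igfbp7 lay at 1730.5 to 10466 CPM (median 4216) in CAFs and 0.938 to 13.8 CPM in TAMs (log2 fold change 9.85 ± 0.35). The WNT antagonist genes Sfrp2 and Sfrp4 had log2 fold changes of 10.96 ± 0.48 and 11.05 ± 0.64. They were spread differently over the CAFs: Sfrp2 averaged 1199 CPM in CAF1 and 968 in CAF2, and Sfrp4 99.7 and 1154. Dkk3 (42.3 to 419 CPM in CAFs) and the BMP modulator gene Bmper (5.34 to 130.0 CPM) had at most 3 counts in any TAM library.

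Transcription factors of mesenchymal development were listed as such, so the direction of the list is not a result. Members at their bound passed the filter on low counts through CAFs. Of 21 tested, 20 were called at 4-fold higher in CAFs (median 7.77, or 5.28 with 5 members at their bound). Osr1, a zinc finger factor of mesenchymal progenitors, lay at 36.5 to 252 CPM (median 161) in CAFs and at most 0.622 CPM in TAMs (log2 fold change 10.67 ± 0.32), the paired-related homeobox gene Prrx2 at 60.4 to 187 CPM (median 137) and at most 0.698 CPM (9.66 ± 0.26), and Twist2 at 16.2 to 33.9 CPM (median 23.5) with at most 1 count in a TAM library. The exception was Zeb2, a zinc finger repressor also used by myeloid cells. Zeb2 lay at 56.1 to 177 CPM (median 146) in TAMs and 33.1 to 59.7 CPM (median 47.3) in CAFs, the lowest TAM library falling inside the CAF range, and was called higher in TAMs (log2 fold change -1.40 ± 0.11, adjusted p = 1.32e-10) in 5 of 5 tumours.

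Hox genes, which carry positional identity along the body axis, were CAF genes where they could be tested: 24 of 29 listed were in the matrix, 17 passed the filter on low counts and all 17 were called higher in CAFs. A low gene passes that filter through the lineage in which it is high, so this count gives no support of its own, and 11 of the tested members had at most 3 counts in every TAM library. The fitted median of 7.37 becomes 3.79 with those at their bound. Hoxa10 lay at 3.27 to 40.7 CPM (median 9.18) in CAFs and had no count in any TAM library, which makes it at least 18.2-fold higher in CAFs against the floor of 3 counts in a library. Hoxc5 and Hoxa9, also without a TAM count, were at least 14.6-fold and 8.17-fold higher, and Hoxd8 lay at 10.1 to 35.4 CPM in CAFs.

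The Hedgehog pathway acts in fibroblasts through the GLI transcription factors and the primary cilium. All 10 tested Hedgehog genes were called higher in CAFs, 9 at 4-fold (median 5.58, or 3.77 with 3 members at their bound). Those 3, the GLI genes, passed the filter on low counts through CAFs, so their calls give no support of their own. Gas1, a co-receptor, lay at 46.6 to 232 CPM (median 77) in CAFs and at most 1.75 CPM in TAMs (log2 fold change 7.57 ± 0.28). Gli3 lay at 10.5 to 23.8 CPM (median 13.1) in CAFs without a count in any TAM library (at least 20.3-fold higher), Gli2 at 3.47 to 10.9 CPM and Gli1, a target gene of the pathway, at only 0.696 to 5.97 CPM. Structural genes of the primary cilium differed less: 19 of 23 were called higher in CAFs, 5 of them at 4-fold, with a median of 1.36. Of all genes tested 39% were called higher in CAFs and 17.7% at 4-fold. Tctn2 of the transition zone (log2 fold change 5.30 ± 0.50), the dynein-2 subunit gene Dync2li1 (3.07 ± 0.27), Tmem107 (2.50 ± 0.24) and Ift81 (2.46 ± 0.22) led the list. Ift140 was called higher in TAMs (log2 fold change -0.45 ± 0.19, adjusted p = 0.0416), a call lost in 16 of 25 fits without 1 library, with -0.35 without CAF2 of tumour 5.

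Effectors of the Hippo pathway, in which YAP and TAZ drive transcription through TEAD factors, were all called higher in CAFs (12 of 12, 10 at 4-fold, median 5.49). The target genes Ccn1 and Ccn2, which encode CYR61 and CTGF, lay at 1727 to 3489 CPM (median 2515) and 538 to 1556 CPM (median 974) in CAFs and at 1.77 to 49 CPM and 0.0982 to 5.56 CPM in TAMs. All 10 CAF libraries were above all 15 TAM libraries in both, with log2 fold changes of 7.004 ± 0.40 and 9.15 ± 0.36. Ankrd1, a muscle ankyrin repeat protein, was at 1.27 to 10.4 CPM (median 6.0) in CAFs and at most 0.626 CPM in TAMs (log2 fold change 6.63 ± 0.55), and Amotl2, an angiomotin, had 6.24 ± 0.38.

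The letters of a TEAD site were searched in promoters, since Ccn1 and Ankrd1 are textbook targets of that factor. The motif GGAATG, on either strand, was found in 12.3% of 13299 RefSeq promoter windows (250 bases before to 50 after a start, 10416 of the genes tested), in 15.9% of the windows of genes called at 4-fold higher in CAFs and in 13.1% of those higher in TAMs. Of 14 windows of the Hippo genes 9 held it. The 250 bases before the start of Ccn1 (chr3:145649986-145650235, minus strand) and Ankrd1 (chr19:36119845-36120094, minus strand) are shown 5′ to 3′ in the gene's direction (RefSeq, GRCm38.p6), chosen because they hold the motif, which is in capitals. The Ccn1 match is on the opposite strand, 103 to 98 bases before the start, and those of Ankrd1 are 210 to 205 and 123 to 118 bases before it. A match is a description of letters and shows no binding.
Ccn1: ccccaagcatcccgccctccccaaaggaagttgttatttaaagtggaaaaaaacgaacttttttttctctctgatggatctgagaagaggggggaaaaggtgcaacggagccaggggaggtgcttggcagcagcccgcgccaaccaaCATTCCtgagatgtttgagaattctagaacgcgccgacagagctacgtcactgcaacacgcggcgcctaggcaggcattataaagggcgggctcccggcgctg
Ankrd1: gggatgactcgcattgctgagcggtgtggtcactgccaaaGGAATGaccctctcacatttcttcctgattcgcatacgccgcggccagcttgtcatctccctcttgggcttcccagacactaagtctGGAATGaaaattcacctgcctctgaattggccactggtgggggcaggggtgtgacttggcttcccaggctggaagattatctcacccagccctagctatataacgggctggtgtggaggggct

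Imprinted genes of fetal growth were higher in CAFs in 11 of 12 tested, all 11 at 4-fold (median 6.10, or 5.39 with 2 at their bound). The maternally expressed noncoding RNA gene Meg3 lay at 50.2 to 289.9 CPM (median 134) in CAFs and at most 1.24 CPM in TAMs (log2 fold change 10.34 ± 0.31). Ndn, which encodes necdin, had a log2 fold change of 9.43 ± 0.30 and the adaptor gene Grb10 8.16 ± 0.31. Dlk1, a NOTCH-like transmembrane protein, lay at 2.07 to 44.1 CPM (median 12) in CAFs, with a mean of 29.6 CPM in CAF1 and 6.05 in CAF2, and had at most 1 count in a TAM library.

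Caveolae, the membrane pits coated by caveolins and cavins, gave 6 of 7 genes called at 4-fold higher in CAFs. Cav1, the main coat protein, lay at 62.9 to 188 CPM (median 123) in CAFs and 0 to 14.2 CPM in TAMs (log2 fold change 6.38 ± 0.47), without overlap, and Cavin3, Ehd2 and Cavin2 had 8.26 ± 0.29, 8.03 ± 0.30 and 6.51 ± 0.38. Cav2, the partner of Cav1, was the exception. It lay at 6.63 to 48.2 CPM (median 30.7) in TAMs and 6.25 to 58.6 CPM (median 10.7) in CAFs, with overlap, and was called higher in TAMs (log2 fold change -0.86 ± 0.23, adjusted p = 0.00196), a call not made with CAF1 alone or with scaling by library totals.

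Integrins, the receptors through which cells hold on to matrix and to each other, divided by family. Of 15 integrin subunits that bind matrix, 9 were called higher in CAFs (7 at 4-fold) and 3 higher in TAMs (1 at 4-fold), with a median of 1.47. The collagen-binding subunit genes Itga11 (log2 fold change 9.50 ± 0.34) and Itga1 (7.18 ± 0.47) had the highest folds in CAFs. Itga1 averaged 124 CPM in CAF1 and 7.67 in CAF2. Itga6, Itga9 and the fibronectin receptor subunit gene Itga5 were the ones higher in TAMs, with log2 fold changes of -2.95 ± 0.36, -1.76 ± 0.14 and -1.11 ± 0.18. Itga6 lay at 28.7 to 94.3 CPM (median 61.1) in TAMs and 0.655 to 97 CPM (median 4.09) in CAFs, where CAF1 averaged 41.5 CPM and CAF2 2.01. Of the leukocyte integrins, all 6 were called higher in TAMs, 5 at 4-fold (median -7.77). Itgam, which encodes CD11b, lay at 129 to 325 CPM (median 234) in TAMs and at most 0.628 CPM in CAFs (log2 fold change -10.52 ± 0.28), and its partner Itgb2 (-9.95 ± 0.23), Itgax (-8.58 ± 0.40) and Itgal (-6.95 ± 0.41) did not overlap between the lineages either.

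On the TAM side the 10 genes chosen in the same way by their mean level were Apoe, Ftl1, Lyz2, Cd14, Ctsb, Cd74, Il1b, C1qb, Ctsd and C1qc. Apoe, the lipid carrier apolipoprotein E (chromosome 7, 19696244 to 19701310, Entrez 11816), lay at 15851 to 85503 CPM (median 34191) in TAMs and 139 to 609 CPM (median 366) in CAFs, a log2 fold change of -6.78 ± 0.38 (adjusted p = 1.66e-13). The lysozyme gene Lyz2 (chromosome 10, 117277541 to 117282272, Entrez 17105) lay at 15347 to 54971 CPM (median 21931) in TAMs and 5.11 to 45.2 CPM (median 10.3) in CAFs (log2 fold change -11.16 ± 0.34). Ftl1, the ferritin light chain, was abundant in both lineages, at 11401 to 51092 CPM (median 27150.0) in TAMs and 2459.8 to 10755 CPM (median 5592) in CAFs (log2 fold change -2.42 ± 0.19), and its groups did not overlap. All 14 macrophage identity genes were called at 4-fold higher in TAMs, and their summed level was 32048 to 109279 CPM in TAMs, 70.7 to 193 CPM in CAF1 and 22.5 to 73.3 CPM in CAF2. This list is named for the lineage and holds the sort marker genes Ptprc, Adgre1 and Mrc1, so its direction is not a result.

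The 3 complement C1q chains, which opsonise dying cells, had nearly equal folds. C1qa lay at 2763 to 16833 CPM (median 6799) in TAMs and 1.31 to 8.79 CPM in CAFs (log2 fold change -11.30 ± 0.32), and C1qb and C1qc had -11.60 ± 0.33 and -11.41 ± 0.28. Of 7 complement genes known from macrophages, 6 were called at 4-fold higher in TAMs (median -10.96), the anaphylatoxin receptor gene C5ar1 among them (log2 fold change -10.96 ± 0.41). The exception was Cfb, factor B of the alternative pathway, which lay at 9.75 to 703 CPM (median 361) in CAFs and 12.7 to 327 CPM (median 69.3) in TAMs and was called higher in CAFs (log2 fold change 1.56 ± 0.36, adjusted p = 5.04e-04). It averaged 117 CPM in CAF1 and 513 in CAF2, and the call was not made with CAF1 alone.

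Complement genes had been listed by the lineage they are known from, so the direction of each list is not a result. Of 6 known from fibroblasts, 5 were called higher in CAFs, 4 at 4-fold, and 1 was not called (median 4.86). Every CAF library lay above every TAM library in 3 of them. The genes of the C1 proteases, of which C1r activates C1s, were higher in CAFs: C1s1 lay at 103 to 872 CPM (median 446) in CAFs and at most 1.14 CPM in TAMs (log2 fold change 10.58 ± 0.32), and C1ra at 74 to 505 CPM (median 351) and 1.55 to 16.5 CPM (5.63 ± 0.21). Serping1, the C1 inhibitor, lay at 1392 to 9449 CPM (median 4902) in CAFs and 0.785 to 4.77 CPM in TAMs (log2 fold change 11.23 ± 0.32). C3, the central component, averaged 195 CPM in CAF1, 868 in CAF2 and 22.3 in TAMs, with overlap of single libraries (log2 fold change 4.09 ± 0.35).

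Receptors and kinases for immune complexes were all called at 4-fold higher in TAMs (15 of 15, median -9.10, or -7.81 with 2 members at their bound). The adaptor genes Fcer1g and Tyrobp, which carry the ITAM tyrosines, lay at 606 to 1969.7 CPM (median 1343) and 671 to 3609 CPM (median 1574) in TAMs and at most 5.65 and 2.99 CPM in CAFs. Their log2 fold changes were -10.11 ± 0.36 and -10.47 ± 0.36. The low-affinity Fc receptor gene Fcgr3 had a log2 fold change of -10.93 ± 0.25 and the lipid receptor gene Trem2 -10.21 ± 0.28. The Fc gamma receptor genes are near-identical copies in part, and how the counting split reads among them is not given in the sources used here.

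Pattern recognition receptors sense microbial and cell debris molecules. Of 21, 18 were called higher in TAMs (15 at 4-fold) and 2 higher in CAFs (median -6.24, or -4.27 with 5 at their bound). Those 5 passed the filter on low counts through TAMs, so their calls give no support of their own. The scavenger receptor gene Msr1 lay at 223 to 869.9 CPM (median 449) in TAMs and at most 0.819 CPM in CAFs (log2 fold change -12.33 ± 0.35), and Clec4n, which encodes dectin-2, at 449 to 1038 CPM (median 632) and at most 0.941 CPM (-11.17 ± 0.31). The endosomal receptor genes Tlr13 (16.5 to 123 CPM in TAMs) and Tlr8 (10.7 to 76.9 CPM) had at most 2 counts in a CAF library. Cd14, the co-receptor for lipopolysaccharide, lay at 7630.5 to 58983 CPM (median 15571) in TAMs and 7.4 to 119 CPM (median 39.6) in CAFs (log2 fold change -9.23 ± 0.37). The 2 members higher in CAFs are intracellular: the sensor gene Nod1 (log2 fold change 1.256 ± 0.21) and the shared adaptor gene Myd88 (0.27 ± 0.09, adjusted p = 0.0125), whose call was lost without tumour 8 (0.22).

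The 6 genes of the phagocyte oxidase, which makes superoxide, were all called at 4-fold higher in TAMs (median -9.56), and no CAF library exceeded 1.88 CPM of the catalytic subunit gene Cybb, which lay at 234 to 1105 CPM (median 532) in TAMs (log2 fold change -10.08 ± 0.41). Ncf4, Ncf1 and the GTPase gene Rac2 had log2 fold changes of -9.99 ± 0.30, -9.27 ± 0.22 and -9.86 ± 0.25. MHC class II genes were likewise all called at 4-fold higher in TAMs (7 of 7, median -7.17, or -6.96 without CD206neg of tumours 6 and 8). Their level varied among the TAM populations, which had been sorted in part on MHC class II. The invariant chain gene Cd74 lay at 257 to 80095 CPM (median 7943) in TAMs, with a CD206hi mean of 1240.4 CPM and means of 23642 and 23587 CPM in CD206neg and CD206pos cells, and at 4.24 to 42 CPM (median 10.1) in CAFs (log2 fold change -9.18 ± 0.52). The CD206neg mean, as high as that of CD206pos cells, goes against the MHCIIlo label and holds the libraries of tumour 6 (80095 CPM) and tumour 8 (17267 CPM). Without both, the log2 fold change of Cd74 was -8.60. H2-Ab1 had a log2 fold change of -8.996 ± 0.64 and the peptide editor gene H2-DMa -7.17 ± 0.32.

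Myeloid transcription factors were called higher in TAMs in 11 of 13 cases, 9 at 4-fold (median -5.37, or -3.71 with 2 at their bound). They were listed as myeloid genes, so the direction of the list is not a result. Spi1, which encodes the macrophage master factor PU.1, lay at 358 to 1618 CPM (median 654) in TAMs and at most 2.20 CPM in CAFs (log2 fold change -10.41 ± 0.30, adjusted p = 1.85e-18). Hhex had a log2 fold change of -7.52 ± 0.36, and Tfec (2.95 to 35.8 CPM in TAMs) and Lyl1 (1.42 to 6.87 CPM) had at most 3 counts in a CAF library. The 2 members called higher in CAFs were small differences with overlapping libraries. Runx1 had a log2 fold change of 0.49 ± 0.13 (adjusted p = 0.00203), from a mean of 178 CPM in CAF1 and 82.4 in CAF2 against 86.8 in TAMs, and -0.01 in place of 0.49 with CAF2 alone. Nr1h3, the oxysterol receptor LXR alpha, had a log2 fold change of 0.34 ± 0.13 (adjusted p = 0.0224), lost without CAF2 of tumour 8 or 11 or CD206neg of tumour 8 (0.27 to 0.28), and also -0.01 with CAF2 alone.

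The letters of a PU.1-type ETS site, GAGGAAG on either strand, were searched in the same windows. They were found in 13.7% of all windows, 21.8% of those of genes called at 4-fold higher in TAMs (292 of 1340) and 13.1% of those higher in CAFs (291 of 2215). Of 14 windows of the Fc receptor and ITAM genes 8 held the motif, and none of the 3 windows of the oxidase genes did. Promoters of Fcgr1 (chr3:96293970-96294219, minus strand), Fcgr4 (chr1:171018676-171018925, plus strand) and Itgam (chr7:128062390-128062639, plus strand) are shown as the 250 bases before the start, 5′ to 3′ in the gene's direction (RefSeq, GRCm38.p6), chosen because they hold the motif, in capitals. Fcgr1 and Fcgr4 were named after their values were seen. The match in Fcgr1 is 56 to 50 bases before the start and that in Fcgr4 23 to 17, both on the opposite strand, and that in Itgam is 84 to 78 bases before it. Fcgr1, the high-affinity IgG receptor, lay at 113 to 210.1 CPM (median 165) in TAMs and at most 0.572 CPM in CAFs (log2 fold change -9.59 ± 0.21), and Fcgr4 at 16.1 to 45.5 CPM (median 25) and at most 0.655 CPM (-7.06 ± 0.32).
Fcgr1: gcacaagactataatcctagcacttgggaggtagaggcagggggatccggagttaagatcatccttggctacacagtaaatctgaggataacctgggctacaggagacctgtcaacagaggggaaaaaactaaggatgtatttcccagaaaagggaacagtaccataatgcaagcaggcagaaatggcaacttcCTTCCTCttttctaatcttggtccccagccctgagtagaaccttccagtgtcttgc
Fcgr4: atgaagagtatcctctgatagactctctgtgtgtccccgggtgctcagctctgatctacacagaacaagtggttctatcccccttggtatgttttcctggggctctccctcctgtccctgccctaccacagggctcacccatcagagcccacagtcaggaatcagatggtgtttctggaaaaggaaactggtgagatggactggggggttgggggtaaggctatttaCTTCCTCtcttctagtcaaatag
Itgam: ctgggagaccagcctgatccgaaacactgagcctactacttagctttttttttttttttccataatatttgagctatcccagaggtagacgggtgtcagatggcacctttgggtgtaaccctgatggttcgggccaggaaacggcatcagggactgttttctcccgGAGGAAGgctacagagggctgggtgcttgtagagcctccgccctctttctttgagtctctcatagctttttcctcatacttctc

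Genes with at most 3 counts in every CAF library and the highest TAM means were surface receptors for the most part. Cd48 and Cd84, of the SLAM family, lay at 123 to 287 CPM (median 194) and 122 to 255 CPM (median 174) in TAMs with narrow spread over the 3 populations. The lectin genes Fcna (1.59 to 1218 CPM (median 89.8)) and Clec4a2 (68.2 to 357 CPM (median 147)) differed more among TAMs: Fcna averaged 479 CPM in CD206hi, 189 in CD206pos and 3.66 in CD206neg cells. Cd300ld (61.5 to 398 CPM), Pirb (28.5 to 409.8 CPM), Igsf6 (70.3 to 171 CPM), Nxpe5 (5.08 to 464 CPM), the survival factor gene Bcl2a1a (24.4 to 792 CPM) and Ccr2 (8.25 to 441 CPM) made up the rest. Cd300ld, Pirb and Bcl2a1a belong to families of near-identical genes, so their counts are uncertain.

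Lysosomal genes were higher in TAMs by smaller factors than receptors. Of 23, 19 were called higher in TAMs (12 at 4-fold) and 2 higher in CAFs, with a median of -2.33. The cathepsin genes Ctsb and Ctsd lay at 7489 to 43586 CPM (median 12393) and 2649.5 to 35050.0 CPM (median 7624) in TAMs and at 1144 to 4385 CPM (median 1656) and 461 to 1415 CPM (median 654) in CAFs. Both lineages thus held them, without overlap of libraries, and the log2 fold changes were -3.15 ± 0.24 and -3.32 ± 0.26. Ctss, which trims the invariant chain, lay at 2642 to 26728 CPM (median 5538) in TAMs and 1.48 to 11.8 CPM in CAFs (log2 fold change -10.97 ± 0.36). Ctsc, which activates serine proteases, had a log2 fold change of -6.44 ± 0.35. The 2 cathepsins that went the other way were Ctsk, the collagen-degrading cathepsin K, and Ctsl. Ctsk lay at 454 to 2562 CPM (median 666) in CAFs and 0 to 12.7 CPM in TAMs, without overlap (log2 fold change 8.51 ± 0.51, adjusted p = 5.96e-13), and Ctsl at 465 to 1959.5 CPM (median 1170.5) and 170.3 to 1418 CPM (median 372), with overlap (1.19 ± 0.18).

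The vacuolar proton pump that acidifies lysosomes was called higher in TAMs in all 16 subunit genes, 5 at 4-fold (median -1.70). Atp6v0a1 lay at 63.3 to 169.6 CPM (median 99.4) in TAMs and 13.5 to 27.7 CPM (median 17.9) in CAFs (log2 fold change -2.47 ± 0.13), and Atp6v0d2, a subunit restricted to few cell types, had -5.21 ± 0.57.

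Chemokines, which direct cell movement, were read in both lineages. Of 23 ligands tested, 16 were called higher in TAMs (13 at 4-fold) and 5 higher in CAFs, all 5 at 4-fold (median -3.56). The CAF set was Ccl11, the eosinophil attractant eotaxin, Cxcl12, Cxcl5, Cxcl14 and Cx3cl1. Ccl11 lay at 173 to 827 CPM (median 646) in CAFs and at most 1.81 CPM in TAMs (log2 fold change 9.96 ± 0.27), and Cxcl12 at 75.1 to 1004 CPM (median 636) and at most 3.05 CPM (9.67 ± 0.46). Cxcl5, Cxcl14 and Cx3cl1 had a log2 fold change of 7.56 ± 0.41, 4.50 ± 0.29 and 3.76 ± 0.22. Among the TAM ligands Ccl3 and Ccl4, which encode macrophage inflammatory proteins, lay at 769 to 4672 CPM (median 2217) and 1951 to 9415 CPM (median 4705) in TAMs and at most 4.92 and 5.86 CPM in CAFs (log2 fold change -11.16 ± 0.40 and -11.17 ± 0.31). Ccl12 and Ccl6 had a log2 fold change of -10.89 ± 0.35 and -9.91 ± 0.44, both with their lowest TAM means in CD206neg cells (363 and 294 CPM).

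The chemokine receptors listed were of signalling and scavenging kinds. The 5 called at 4-fold higher in TAMs were Ccr1 (log2 fold change -11.57 ± 0.28), Cx3cr1 (-10.07 ± 0.36), Cxcr4 (-6.52 ± 0.25), Ccr7 (-6.31 ± 0.75) and Ccr2, all receptors that signal to migration. Ccr1 lay at 352 to 1224 CPM (median 642) in TAMs and 0.0655 to 1.25 CPM in CAFs. The 4 called at 4-fold higher in CAFs were the atypical receptors Ackr1 to Ackr4, which bind chemokines and remove or carry them. Ackr1, Ackr2 and Ackr4 had at most 3 counts in every TAM library. They passed the filter on low counts through CAFs, so their calls give no support of their own, and their lowest CAF libraries were at 0, 0 and 0.105 CPM. The same limit holds for Ccr2, with at most 3 counts in every CAF library. Ackr3, which takes up CXCL12, lay at 23.1 to 931 CPM (median 324) in CAFs and at most 2.92 CPM in TAMs (log2 fold change 8.01 ± 0.34). Its CAF level was mostly in CAF2, with means of 768 CPM in CAF2 and 78.4 in CAF1, as for Ackr2 (53.6 and 1.25), Ackr1 (9.62 and 0.469) and Ackr4 (4.20 and 0.839).

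Eicosanoid genes parted by product. The prostacyclin synthase gene Ptgis (7.63 to 115 CPM (median 55.8) in CAFs, at most 2 counts in a TAM library) and the prostaglandin E synthase gene Ptges (23.1 to 94.2 CPM (median 65.4) in CAFs and 0 to 8.65 CPM in TAMs, log2 fold change 5.25 ± 0.34) were the 2 of 12 called higher in CAFs. Among the 9 called higher in TAMs were Alox5, which starts leukotriene synthesis (23.4 to 231 CPM (median 95) in TAMs), the leukotriene receptor gene Cysltr1 (47 to 156 CPM (median 77)), and the prostaglandin D and thromboxane synthase genes Hpgds (log2 fold change -9.66 ± 0.35) and Tbxas1 (-8.39 ± 0.14). Lipid handling genes were called higher in TAMs in 8 of 11 cases, against 33.1% of all genes tested. Among the 8 were the fatty acid receptor gene Cd36 (log2 fold change -4.27 ± 0.32), the lipid droplet gene Plin2 (-3.47 ± 0.21) and Olr1 (-3.41 ± 0.28). The fatty acid carrier gene Fabp4 lay at 17.8 to 196 CPM (median 56.7) in CAFs and 1.67 to 14 CPM in TAMs (log2 fold change 3.54 ± 0.23) and the lipase gene Lpl at 212 to 954 CPM (median 600.4) and 34.9 to 387 CPM (median 178) (1.99 ± 0.28), and both were higher in CAFs.

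Ligands and their receptors were set side by side in 37 pairs. In 9 of 37 pairs listed, the ligand was called higher in CAFs and the receptor higher in TAMs, in 10 it was the reverse, in 7 both were higher in CAFs and in 4 both in TAMs. The other 7 had a ligand that was not called or, in 1 case, an untested receptor. Of all genes tested 39% were called higher in CAFs and 33.1% higher in TAMs, so these counts say little about the pairs. The 19 pairs with opposite calls fell to 12 where both calls had to be at 4-fold, which 17.7% of all genes passed higher in CAFs and 10% higher in TAMs. Csf1r, the receptor that macrophages need for survival, lay at 566 to 4494 CPM (median 1805) in TAMs and 2.01 to 7.78 CPM in CAFs (log2 fold change -8.68 ± 0.40). Of its ligands Csf1 lay at 57 to 229 CPM (median 159.97) in CAFs and 1.51 to 57.4 CPM (median 12.4) in TAMs, where CD206neg averaged 27.1 CPM (log2 fold change 3.71 ± 0.29), and Il34 at 40.7 to 174 CPM (median 75.8) in CAFs and at most 0.622 CPM in TAMs (9.02 ± 0.28). C3 and its fragment's receptor C3ar1 (log2 fold change -10.66 ± 0.41), Il6 (5.12 ± 0.27) and Il6ra (-2.77 ± 0.22), Cxcl12 and Cxcr4, Cx3cl1 and Cx3cr1, Thbs1 (5.23 ± 0.19) and Cd36, and Pros1 (1.87 ± 0.16) and the efferocytosis receptor gene Mertk (-3.91 ± 0.27) had this order. Tslp and Crlf2 also had it, with log2 fold changes of 1.55 ± 0.31 and -2.21 ± 0.14, but Tslp averaged 0.141 CPM in CD206neg, 21.2 in CD206hi and 15 in CD206pos cells against 9.29 in CAFs, and its log2 fold change was -0.79 with CD206neg left out.

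The reverse order held for some inflammatory cytokines and growth factors, while others, such as Il6, Csf1 and Il34 above, were higher in CAFs. Il1b, the fever cytokine interleukin 1 beta (chromosome 2, 129364569 to 129371164, Entrez 16176), lay at 3497 to 32262 CPM (median 7267) in TAMs and 1.48 to 12.7 CPM (median 5.06) in CAFs (log2 fold change -10.94 ± 0.34), Il1a had -10.64 ± 0.38, and their receptor gene Il1r1 lay at 76.1 to 159 CPM (median 104) in CAFs and 0 to 8.04 CPM in TAMs (6.97 ± 0.39). Osm, oncostatin M, lay at 365 to 2902 CPM (median 1192) in TAMs and at most 3.24 CPM in CAFs (log2 fold change -11.61 ± 0.44), and its receptor gene Osmr at 40.3 to 87.7 CPM (median 62.9) in CAFs and at most 3.30 CPM in TAMs (6.13 ± 0.36). Pdgfb (log2 fold change -6.07 ± 0.38) and Pdgfrb (6.66 ± 0.32) and Areg (-4.15 ± 0.38) and Egfr (5.21 ± 0.34) also sat apart. Receptors present in both lineages differed less than their ligands: Tnfrsf1a had a log2 fold change of 0.68 ± 0.10 and Tnf -8.66 ± 0.32, Tgfbr2 1.43 ± 0.16 and Tgfb1 -2.49 ± 0.26, and Lrp1 1.45 ± 0.15 and Apoe the value above. The ligands Pdgfa (log2 fold change -1.38 ± 0.20) and Pdgfc (-0.85 ± 0.23) of Pdgfra were only slightly higher in TAMs. The Pdgfa call was not made with CAF1 alone, and Pdgfc had 0.12 with CAF2 alone.

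Pairs with both genes on one side included Il33 (log2 fold change 8.82 ± 0.34) with Il1rl1 (3.14 ± 0.29), Col1a1 with Ddr2 (9.74 ± 0.30), Igf1 (2.86 ± 0.29) with Igf1r (1.78 ± 0.22) and Tgfb3 (3.77 ± 0.24) with Tgfbr2 in CAFs, and Il10 (-9.86 ± 0.35) with Il10ra (-9.51 ± 0.34) in TAMs. Ccl2 and Ccr2 were also both higher in TAMs, but Ccl2 lay at 562 to 7002 CPM (median 2517) in CAFs and 368 to 18825 CPM (median 5383) in TAMs, its log2 fold change was -0.73 ± 0.29 (adjusted p = 0.0299), and the call was lost in 9 of 25 fits without 1 library, with values down to -0.57 without CD206neg of tumour 8. Cd47, the signal against engulfment that Sirpa (log2 fold change -3.63 ± 0.23) reads, was at like levels, 214 to 522 CPM (median 349) in CAFs and 254 to 495 CPM (median 352) in TAMs, and was not called (-0.04 ± 0.10, adjusted p = 0.734).

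**Figure D4:**
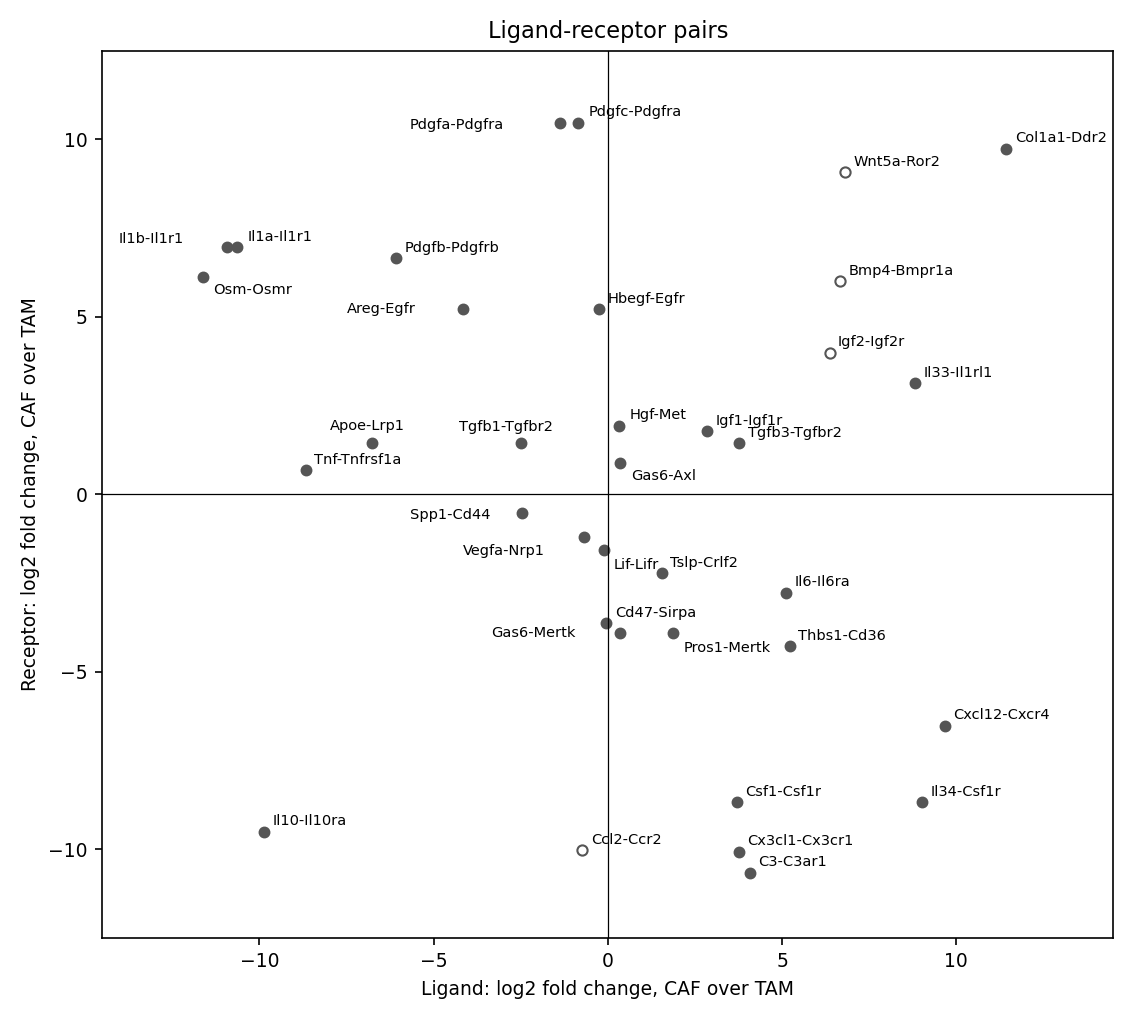
Log2 fold change, CAF over TAM, of the receptor (vertical) against that of its ligand (horizontal) for 36 tested pairs. Pairs at the lower right have the ligand in CAFs and the receptor in TAMs, those at the upper left the reverse, and open symbols mark pairs with a gene at 3 counts or fewer in every library of a lineage.

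Pairs of a gene listed here as the leukocyte form and a related gene were set side by side. The naming is loose for some, among them Lmnb1, Arpc1b and Capg (log2 fold changes -2.12, -1.37 and -0.04). In 15 of 27 listed pairs the leukocyte form was called higher in TAMs and its relative higher in CAFs, and in 8 both calls were at 4-fold. Of all genes tested 33.1% were called higher in TAMs and 39% higher in CAFs, or 10% and 17.7% at 4-fold. The first genes were chosen as leukocyte genes, so their direction is not a result. In 7 both were higher in TAMs, in 4 the relative was not called, and in 1 (Capg and Gsn) the leukocyte form was not called. The actin bundlers were a pair with opposite calls: Lcp1 lay at 553 to 2420.1 CPM (median 1288) in TAMs and 0.616 to 26.9 CPM (median 3.50) in CAFs (log2 fold change -7.97 ± 0.46), and Pls3 at 117 to 325 CPM (median 205) in CAFs and 1.40 to 13.3 CPM in TAMs (5.25 ± 0.19). The WAVE complex subunits Nckap1l (log2 fold change -10.22 ± 0.24) and Nckap1 (5.77 ± 0.25) and the cortactin relatives Hcls1 (-9.79 ± 0.40) and Cttn (5.27 ± 0.30) gave the same picture.

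At integrin tails, which tie the receptors to actin, Fermt3 (log2 fold change -9.43 ± 0.29) stood against Fermt2 (5.73 ± 0.20) and Parvg (-8.02 ± 0.41) against Parva (6.63 ± 0.33). Fermt2 lay at 111 to 184 CPM (median 135) in CAFs and 0.589 to 7.42 CPM in TAMs, and Fermt3 at 106 to 299 CPM (median 214) in TAMs and at most 0.837 CPM in CAFs. Not every relative was a CAF gene. Rac1 was higher in TAMs like Rac2 (log2 fold changes -0.78 ± 0.12 and -9.86 ± 0.25), and Coro1c like Coro1a (-1.55 ± 0.14 and -9.55 ± 0.28). Dock1, at 16 to 22.4 CPM (median 20.4) in CAFs and 9.69 to 34.1 CPM (median 19.7) in TAMs, was not called (log2 fold change 0.05 ± 0.10, adjusted p = 0.689), while Dock2 was higher in TAMs (-10.32 ± 0.28). The PI3 kinase genes Pik3cd (log2 fold change -4.04 ± 0.30) and Pik3cb (-3.83 ± 0.31) were both at 4-fold higher in TAMs.

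**Figure D5:**
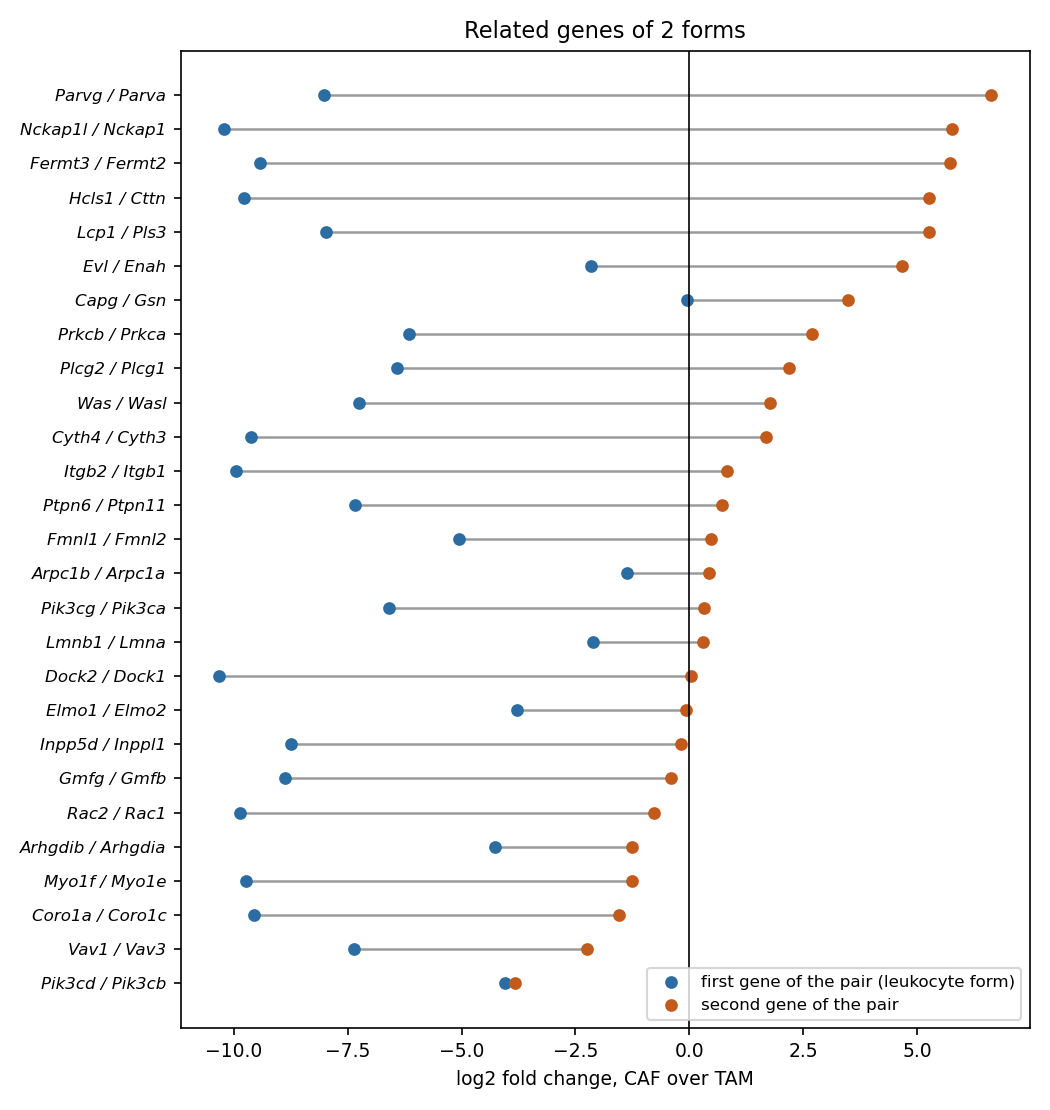
Log2 fold change, CAF over TAM, of both genes of 27 pairs, ordered by the second gene, with the leukocyte form in blue and its relative in orange. Blue points lie left of 0, except for Capg beside 0, and orange points lie on both sides of it.

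Energy metabolism and growth genes differed by small amounts, in which scaling matters more. Of 19 glycolysis genes 13 were called higher in TAMs (2 at 4-fold) and 4 higher in CAFs (median -0.81). Hk3, a hexokinase of myeloid cells, lay at 17 to 64.3 CPM (median 44) in TAMs without a count in any CAF library (at least 87.9-fold higher in TAMs), and the lactate exporter gene Slc16a3 had a log2 fold change of -2.16 ± 0.27, with 185 CPM in CD206neg cells. Higher in CAFs were Pfkm (log2 fold change 1.86 ± 0.15), Hk1 (0.60 ± 0.14), Slc2a3 (1.27 ± 0.23) and Pfkp (0.40 ± 0.15). The Pfkp call was lost in 4 of 25 fits without 1 library (CAF1 of tumours 6 and 8, CAF2 of tumour 11, CD206neg of tumour 8), where it was 0.28 to 0.35, and Slc2a3 had -0.09 with CAF2 alone.

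Respiratory chain genes of the nucleus were called higher in TAMs in 16 of 22 cases, none at 4-fold (median -0.39). With scaling by library totals only 4 were called higher in TAMs and 3 higher in CAFs. Cox5a, a subunit of complex IV, had the largest of these differences: it lay at 276 to 643 CPM (median 508) in TAMs and 75.9 to 223 CPM (median 123) in CAFs (log2 fold change -1.91 ± 0.13). Cell cycle genes were called higher in TAMs in 18 of 22 cases (33.1% of all genes tested), 2 at 4-fold (10% of all), with a median of -1.21. Both at 4-fold are subunits of the MCM replication helicase: Mcm3 lay at 13.6 to 57.4 CPM (median 42.2) in TAMs and 5.23 to 12 CPM (median 7.0) in CAFs, without overlap (log2 fold change -2.25 ± 0.16), and Mcm5 had -2.16 ± 0.19. TAM means of Mcm3 were 52 CPM in CD206neg, 36 in CD206hi and 27.4 in CD206pos cells.

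Of 79 cytosolic ribosomal protein genes 55 were not called, 16 were called higher in CAFs and 8 higher in TAMs (median 0.11). With scaling by library totals 51 were called higher in CAFs and 2 higher in TAMs, so a direction for the family cannot be given apart from the scaling. The 2 at 4-fold were paralogous members, Rps4l (21.5 to 48.6 CPM (median 39.8) in CAFs, 0.0833 to 3.96 CPM in TAMs, log2 fold change 4.87 ± 0.25) and Rpl39l (4.70 ± 0.33), whose reads can be shared with near-identical copies.

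Genes induced by handling and dissociation were called about as often as all genes tested (72.1%). Of 14, 7 were called higher in CAFs, 3 higher in TAMs and 4 not, and 2 passed 4-fold, a smaller share than the 27.7% of all genes (median 0.27). The immediate early factor genes Egr1 (2213 to 7377 CPM (median 3212) in CAFs, 272 to 1879.8 CPM (median 534) in TAMs, log2 fold change 2.61 ± 0.15) and Jun (2.34 ± 0.20) were at 4-fold, and Fos, at 4147 to 16360.0 CPM (median 8493) in CAFs and 1069.8 to 8558 CPM (median 2366) in TAMs, was abundant in both (1.54 ± 0.17). Atf3 (log2 fold change -0.76 ± 0.17) was among those higher in TAMs, a call not made with CAF2 alone. Whether these levels bear on Ccn1 and Ccn2, which are also immediate early genes, was not tested.

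RNA of other cell types was looked for with marker lists. The CAF1 libraries held pericyte and smooth muscle markers: the summed pericyte level was 532.9 to 1877 CPM in CAF1, 76.6 to 106 CPM in CAF2 and 5.05 to 33.6 CPM in TAMs, and the summed smooth muscle level 905 to 3881 CPM in CAF1 and 81.4 to 212 CPM in CAF2. 8 of 9 pericyte genes were called at 4-fold higher in CAFs. Rgs5 averaged 554 ± 295 CPM (SD, n = 5) in CAF1 and 2.29 ± 3.65 CPM (SD, n = 5) in CAF2, and Acta2, smooth muscle actin, 1628 ± 964 CPM (SD, n = 5) and 98.8 ± 38.9 CPM (SD, n = 5). Myoepithelial genes such as Krt5 averaged 132 ± 187 CPM (SD, n = 5) in CAF1 and 0.539 ± 0.507 CPM (SD, n = 5) in CAF2, and all 5 were called at 4-fold higher in CAFs. The summed endothelial level was 35.5 to 99.7 CPM in CAFs and 3.12 to 13.4 CPM in TAMs. Of 6 endothelial genes tested, 2 were called higher in CAFs and 2 higher in TAMs, near the 39% and 33.1% of all genes tested. At 4-fold 17.7% of all genes were higher in CAFs. The part of these cells in the CAF levels above was not tested.

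Marker genes of lymphocytes, neutrophils and dendritic cells were also read in TAMs. Summed T cell markers were 23.0 to 78.5 CPM in TAMs and 0.77 to 2.52 CPM in CAFs. Among them Cd4, a gene that macrophages can also express, lay at 7.45 to 35.1 CPM (median 21.1) in TAMs. Summed neutrophil markers were 26.8 to 67.3 CPM in TAMs and 0.074 to 10.9 CPM in CAFs, and 1 of 3 genes tested was called higher in TAMs. The summed dendritic cell level was 8.79 to 423 CPM in CD206hi, 17.7 to 72.4 in CD206neg and 31.2 to 335 in CD206pos cells, against 2.32 to 12.7 CPM in CAFs, and 4 of 5 genes tested were called at 4-fold higher in TAMs. Its part in the TAM levels of other genes was not tested. Of these genes Cd209a averaged 149 CPM in CD206pos, 133 in CD206hi and 0.502 in CD206neg cells, Siglech was higher in TAMs (log2 fold change -7.03 ± 0.73), and Zbtb46 was the only one of 5 called higher in CAFs (2.16 ± 0.41). Luminal epithelial genes were called higher in CAFs in 3 of 12 cases and in none higher in TAMs. Of all genes tested 39% and 33.1% were called so (17.7% and 10% at 4-fold), so this count says little. Their summed levels were 226 to 1726 CPM in CAF1, 9.03 to 495 CPM in CAF2 and 29.5 to 1018 CPM in TAMs. The 3 called were Cldn3 (log2 fold change 1.49 ± 0.39), Krt19 (1.25 ± 0.39, or 0.77 without CAF1 of tumour 5) and Cldn7 (1.00 ± 0.34, a call lost without CAF2 of tumour 6, at 0.83). With CAF2 alone none of them was called higher in CAFs, and the log2 fold changes were 0.29, -0.51 and -0.84.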

How the data were processed

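Bulk RNA sequencing was done on sorted cells. Per the labels' protocols, RNA was extracted with RNeasy Plus Micro columns and libraries, sequenced on a HiSeq 2500, were made with the kits Ovation Ultralow V2 and SMARTseq v4. The submitters' processing notes name the build mm10 with the aligner HISAT2 2.0.4, and also Trimmomatic 0.36, DESeq2 1.26 and SAMtools 1.3.1. For the read counter, the annotation and the strand setting nothing is given in the sources used here. The authors deposited a matrix of raw counts for 14118 genes, none on the mitochondrial genome and each with at least 72 counts in all. The authors also deposited normalised values (a signal scale), which equalled the counts divided by 1 factor per library within a relative 8e-10 and were used in 1 alternative. Entrez identifiers were paired with symbols and coordinates through RefSeq GRCm38.p6 (14104 matched, 14 did not).

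The counts were filtered with filterByExpr, TMM-scaled and fitted with edgeR 4.0.16 (glmQLFit and glmQLFTest, R 4.3.3) with a term for each population and each tumour. Genes were called at a Benjamini-Hochberg adjusted p under 0.05 over 13089 genes. A standard error is the size of the log2 fold change divided by the root of F. Same-numbered libraries come from the same mouse. Their deviations from the population means had correlations of 0.0272 to 0.587 over 50 pairs of libraries (median 0.17), against a median of -0.048 between tumours. On simulated counts for 12900 genes of this comparison edgeR found 79% of 2-fold and 93% of 4-fold changes, with 2.27% false calls. The simulation changed only a small share of genes, as many up as down, where 72.1% were called in the data. It therefore did not test the scaling, and its false calls need not hold for these data.

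The 51 lists (671 of 717 members in the matrix), the gene pairs and the members of the comparison were chosen with earlier results of these data known. The direction of a list named for a lineage is therefore not a result. Genes were named by a rule: sort and lineage markers, the 10 of highest level in each lineage among 4-fold calls without overlap, the 10 largest changes in each direction with at least 20 CPM in the higher and 1 CPM in the lower lineage, the 10 of highest level in each lineage with at most 3 counts in any library of the other, for each list the 4 largest called changes either way and any member going against it, and all members of the pairs. A few list members are not reported here and were left out of the lists and pairs. Alternatives were DESeq2 1.42.0, limma 3.58.1 (on voom weights, on the authors' values, and on per-tumour differences), other scalings, filters and thresholds, single populations, no tumour term, and leaving out each tumour or library. Leaving out CD206neg of tumours 6 and 8 was chosen after seeing the data.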

Additional observations from a re-analysis of the deposited data

Results flagged for a closer look

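Of the 254 genes named, 11 had a tumour whose CAF minus TAM difference (log2 CPM, lineage means) lay apart from the other 4 tumours, with a gap of more than 0.71 of the range. Chance flags about 1 in 20 such groups. Tumour 6 stood apart for C1s1 (8.28, others 9.74 to 10.34), Cd47 (-0.46, others 0.01 to 0.09), Rac2 (-8.60, others -9.63 to -9.38) and Slc2a3 (1.75, others 1.00 to 1.22). Tumour 8 stood apart for Adgrd1 (8.29, others 9.11 to 9.402), Ccl6 (-8.28, others -10.61 to -10.00) and Svep1 (8.35, others 9.18 to 9.41). Tumour 10 stood apart for Igsf6 (-8.37, others -9.23 to -9.02) and Trem2 (-10.55, others -9.50 to -9.28), and tumour 5 for Crlf2 (-2.60, others -2.10 to -2.01) and H2-Aa (-5.55, others -9.38 to -8.36). Among these 11 only Cd47, which was not called, had a sign that differed between tumours.

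Cldn7, a tight junction claudin, lay on opposite sides of TAMs in the CAF populations: the mean difference from TAMs was 2.71 for CAF1 and -0.76 for CAF2, each with its sign in all 5 tumours. The difference between these effects was not tested.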

How the results depend on the processing

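The 5 counts of calls stayed within 1.5 times their value in every alternative run but 2. Asking for more than 2-fold with glmTreat left 4776 calls (2846 higher in CAFs, 1930 higher in TAMs) by construction, and scaling by library totals alone left 2885 higher in TAMs. Without each tumour in turn there were 8875 to 9236 calls (4840 to 4982 higher in CAFs, 3938 to 4297 in TAMs; at 4-fold 2248 to 2404 and 1288 to 1334). Without each library there were 9263 to 9576 (5004 to 5414, 4060 to 4430, 2358 to 2463 and 1278 to 1358).

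Without the tumour as replicate block 8959 genes were called (4813 and 4146, at 4-fold 2284 and 1310), 8922 of them also called with it, in the same direction. Of the named genes 7 lost their call without the pairing: Ccl2 (-0.70), Cd79b (-1.54), Cldn3 (1.255), Cldn7 (0.89), Krt19 (1.01), Myd88 (0.26) and Pfkp (0.36). In limma on per-tumour differences the calls of Ccl2 (adjusted p = 0.0695), Myd88 (0.084), Pfkp (0.0658), Runx1 (0.0621), Nr1h3 (0.0971) and Ift140 (0.0698) were not made.

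Of the 254 named genes, 27 gained or lost a call or turned sign in at least 1 of 47 alternatives, 9 of them by sign. The sign turned for Cd47 with library totals (0.28) and CAF2 alone (0.38), and for Spp1 with CAF1 alone (0.34). With CAF2 alone it turned for Cldn7 (-0.84), Krt19 (-0.51), Nr1h3 (-0.0060), Pdgfc (0.12), Runx1 (-0.0080) and Slc2a3 (-0.093), and without the CD206neg population for Tslp (-0.79). The cause was not tested. Depth limits genes with 3 counts or fewer in 1 lineage, for which the fitted fold depends on the prior count.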

Other observations

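Summed levels of other cell types' markers singled out tumour 6 and a few single libraries. The luminal epithelial sum over 12 genes was highest in tumour 6 in each of the 5 populations, at 1726 CPM in CAF1, 495 in CAF2, 387 in CD206hi, 1018 in CD206neg and 525 in CD206pos cells, where the medians of the 5 tumours were 714, 27.0, 124, 193 and 60.3 CPM. The sum of the 3 erythroid genes in the matrix was 61.3 to 142 CPM in the 5 libraries of tumour 6, and its median over the 10 CAF libraries was 10.4 CPM and over the 15 TAM libraries 2.10 CPM. Leaving out tumour 6 gave 9098 called genes.

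Cd79b, a B cell receptor subunit gene, reached 99.7 CPM in CAF1 of tumour 8, where the CAF median was 0.425 CPM, and lay at 2.50 to 21.4 CPM (median 8.52) in TAMs. It was called higher in TAMs (log2 fold change -2.95 ± 0.89, adjusted p = 0.00538), and with CAF1 alone the value was -0.64 and not called. Without tumour 8 it was -4.64. The sum of the 3 mast cell genes in the matrix was 124 CPM in CD206neg of tumour 5 and at most 4.004 CPM in any other of the 25 libraries.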
